A study of Saccharomyces cerevisiae with 8 samples.

Results

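The genes described here are 9 yeast open reading frames (ORFs) of lysine biosynthesis, out of 6212 ORFs in the deposited table. They were chosen by name: *LYS1* (YIR034C), *LYS2* (YBR115C), *LYS4* (YDR234W), *LYS5* (YGL154C), *LYS9* (YNR050C), *LYS12* (YIL094C), *LYS14* (YDR034C), *LYS20* (YDL182W) and *LYS21* (YDL131W). The pathway was singled out because several of these transcripts had been seen above the wild type in *ptc6* cells on these same arrays. Their *ptc6* values are therefore given as a description, without a test, and so is any difference between the mutants. Only the comparison of *ptc1 ptc6* cells with the wild type was tested.

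Ptc6 and Ptc1 belong to the type 2C family of protein phosphatases. The arrays ask how the loss of Ptc6, alone or with Ptc1, alters the transcript profile of *Saccharomyces cerevisiae*. Mutant cDNA competed with wild type (wt) cDNA on each of 8 two-colour arrays of amplified ORFs. A set of 4 arrays compared the *ptc6* mutant (*ptc6::kanMX4*) with wt, and another 4 compared the *ptc1 ptc6* double mutant (*ptc1::NAT ptc6::kanMX4*) with wt. A set consisted of 2 biological replicates, each run with the dyes Cy3 and Cy5 in both orientations. All strains, wt included, were of the BY4741 background, which lacks functional *HIS3*, *LEU2*, *MET15* and *URA3* genes and makes its own lysine. All cultures were untreated and in log phase in YPD, a rich medium that supplies lysine, at 28 °C.

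Yeast makes lysine from 2-oxoglutarate and acetyl-CoA by the alpha-aminoadipate route, which is found in fungi and differs from the diaminopimelate route of plants and most bacteria. The early reactions lengthen the carbon chain to alpha-aminoadipate. The later ones reduce it to the semialdehyde, join it to glutamate as saccharopine and split saccharopine to release lysine. Lysine inhibits the homocitrate synthases, which make the first intermediate, and the activator Lys14 raises transcription of the pathway genes when alpha-aminoadipate semialdehyde is present. Gcn4, the general activator of amino acid biosynthesis under starvation, adds a second level of control.

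Values are log2 ratios of mutant over wt, so that 0 is the wt level, 1 is a 2-fold increase and -1 a 2-fold decrease. The arrays of a dye swap share their RNA, so they were averaged, and means are given ± SD of the replicate means (n = 2). Ratios compare a gene with itself in wt and say nothing of which gene is more abundant. Array values are listed in the order of experiments 1, 2, 5 and 6 for *ptc6* and 1, 2, 3 and 4 for *ptc1 ptc6*. In each set the former pair of experiments is replicate 1 and the latter pair replicate 2, with the mutant in Cy3 and then in Cy5.

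Between 4050 and 5537 ORFs had a value on an array, and 69 of the 72 possible array values of the lysine genes were present. The deleted genes followed the labels. *PTC6* was at -2.34 ± 0.11 in *ptc6* and -3.94 ± 1.11 in *ptc1 ptc6*, and *PTC1* was at 0.22 ± 0.26 and -2.56 ± 0.18. Across ORFs, the replicate means correlated with Pearson r = 0.12 in *ptc6* and r = 0.76 in *ptc1 ptc6*. Lysine gene values in *ptc6* are therefore given by replicate.

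In *ptc6* cells most of the pathway lay above wt, from the homocitrate synthases to the last enzyme, by less than 2-fold in the mean of the replicates. In replicate 1 alone *LYS20* (1.06) and *LYS1* (1.04) were past 2-fold. The median over the 8 lysine genes with values in both replicates was 0.48, against 0.02 over 4824 ORFs, and was 0.69 in replicate 1 and 0.26 in replicate 2. In *ptc1 ptc6* cells the median over the 9 genes was -0.16, against -0.05 over 4596 ORFs, with -0.17 and -0.15 in the replicates. *LYS4* was lower than wt there, *LYS1* stayed above 0 on every array without passing the test, and the others lay between them.

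**Figure D1:**
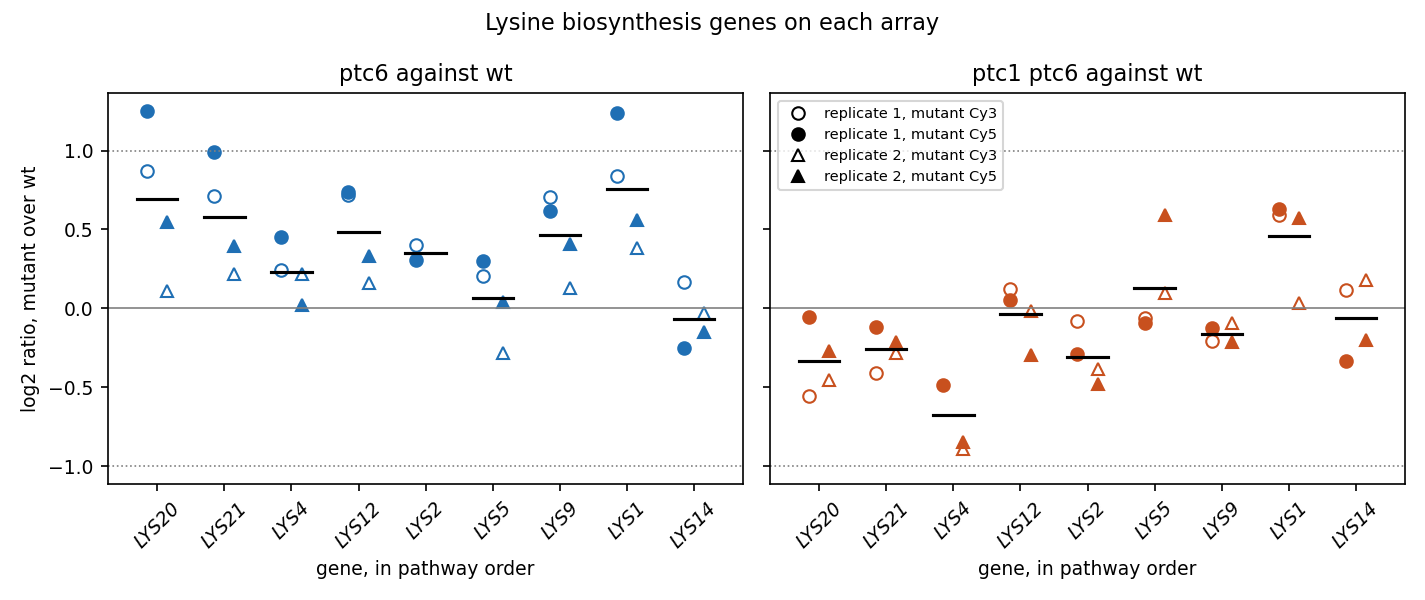
Log2 ratio of mutant over wt (vertical axis) of each lysine biosynthesis gene (horizontal axis, in pathway order) on each of the 4 *ptc6* arrays and 4 *ptc1 ptc6* arrays. Circles are replicate 1 and triangles replicate 2, open symbols have the mutant in Cy3 and filled ones in Cy5, bars are means of the replicate means, and dotted lines mark a 2-fold change. *LYS20* ranges from 0.11 to 1.25 in *ptc6* and from -0.56 to -0.05 in *ptc1 ptc6*.

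The pathway opens with homocitrate synthase, which yeast makes as a pair of isoenzymes encoded by *LYS20* and *LYS21*. *LYS20* was at 0.87, 1.25, 0.11 and 0.55 on the *ptc6* arrays and at -0.56, -0.05, -0.45 and -0.27 on the *ptc1 ptc6* arrays. All *ptc6* values were above 0 and all *ptc1 ptc6* values below it, so the sets did not overlap, and within *ptc6* the arrays of replicate 1 were the higher pair. On the *ptc6* arrays 27, 1, 1821 and 49 ORFs had a higher ratio than *LYS20*. Its mean was 0.69 ± 0.52 in *ptc6*, with replicate means of 1.06 and 0.33, and -0.33 ± 0.04 in *ptc1 ptc6*, where limma gave an adjusted p = 0.235.

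*LYS21* was at 0.71, 0.99, 0.22 and 0.40 in *ptc6* and at -0.41, -0.12, -0.28 and -0.21 in *ptc1 ptc6*. It had the same order of replicates as *LYS20* and no overlap between the mutants. Its means were 0.58 ± 0.39 and -0.26 ± 0.01, the latter with an adjusted p = 0.270 (limma). In both isoenzyme genes the *ptc1 ptc6* replicates lay close together and the fit took its spread from *ptc6* as well. With *ptc1 ptc6* fitted alone the adjusted p was 0.0617 for *LYS20* and 0.0971 for *LYS21* (limma), also not past the threshold, and over all alternatives it ranged up to 0.546 and 0.594. The isoenzyme genes differed from each other by 0.06 to 0.26 on an array, with r = 0.99 over the 8 arrays. They encode closely related proteins, and a spot of amplified ORF can bind cDNA of both, so their separate values are uncertain. Cross-hybridisation was not tested.

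Homoaconitase, encoded by *LYS4*, carries out the hydration that follows in the mitochondrion. In *ptc6* it was at 0.25, 0.45, 0.22 and 0.02. In *ptc1 ptc6* it was at -0.48, -0.89 and -0.85 on experiments 2, 3 and 4 and had no value on experiment 1. Every *ptc1 ptc6* value lay well below every *ptc6* value, and replicate 1 of the double mutant rests on the Cy5 array alone.

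*LYS4* was the lysine gene that passed the test. In *ptc1 ptc6* its mean was -0.68 ± 0.27, which is 0.625 of the wt level, with SE 0.13 and an adjusted p = 0.0317 (limma). On the 3 arrays it stood at percentiles 11.5, 2.3 and 3.8 of the ORFs. In *ptc6* its mean was 0.23 ± 0.16. The *ptc1 ptc6* call was lost when arrays were scaled to equal spread (-0.56, adjusted p = 0.128) and without replicate 2 (-0.48, adjusted p = 0.210), and over all alternatives that could test it the adjusted p ranged from 0.00131 to 0.210 (limma). Without replicate 2 a single array remains, and the spread in that fit comes from the *ptc6* replicates, so the lone array was assumed to vary like them. The fit without replicate 1 (-0.87) likewise rests on 1 *ptc1 ptc6* replicate mean and takes its spread from *ptc6*.

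*LYS12* encodes homoisocitrate dehydrogenase, which completes the lengthening of the chain. It was at 0.72, 0.74, 0.16 and 0.33 in *ptc6* and at 0.12, 0.05, -0.01 and -0.30 in *ptc1 ptc6*. Both arrays of *ptc6* replicate 1 stood apart from the rest, whereas the lowest *ptc6* value and the highest *ptc1 ptc6* value lay next to each other. The means were 0.49 ± 0.34 and -0.03 ± 0.17 (adjusted p = 0.900 in *ptc1 ptc6*, limma).

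Alpha-aminoadipate reductase, the *LYS2* product, is inactive until the phosphopantetheinyl transferase encoded by *LYS5* attaches its cofactor. *LYS2* was at 0.40 and 0.31 in *ptc6* replicate 1 and had no value in replicate 2. In the double mutant it was at -0.08, -0.29, -0.38 and -0.48, all below 0 and below both *ptc6* values. The *ptc1 ptc6* mean was -0.31 ± 0.18, with an adjusted p = 0.146 (limma).

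*LYS5* was at 0.21, 0.30, -0.28 and 0.04 in *ptc6* and at -0.06, -0.10, 0.10 and 0.59 in *ptc1 ptc6*. It lay on both sides of 0 in each set, and the sets overlapped almost fully. Its means were 0.07 ± 0.26 and 0.13 ± 0.30 (adjusted p = 0.573 in *ptc1 ptc6*, limma). The means of the reductase gene and of the gene for its activating enzyme thus lay on opposite sides of 0 in the double mutant, and neither passed the test.

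The saccharopine steps close the pathway. *LYS9*, for the saccharopine reductase that joins the semialdehyde to glutamate, was at 0.71, 0.62, 0.13 and 0.41 in *ptc6* and at -0.21, -0.12, -0.10 and -0.21 in *ptc1 ptc6*. The sets lay on opposite sides of 0, and the double mutant arrays were close together. Its means were 0.47 ± 0.28 and -0.16 ± 0.01, the latter not past the test (adjusted p = 0.417, limma).

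*LYS1* encodes saccharopine dehydrogenase, which releases lysine. It was at 0.84, 1.24, 0.38 and 0.56 in *ptc6* and at 0.59, 0.63, 0.04 and 0.57 in *ptc1 ptc6*. Every array was above 0 in both mutants and the sets overlapped, with a single low array, experiment 3, in the double mutant. The mean was 0.75 ± 0.40 in *ptc6*, or 1.69-fold, with replicate means of 1.04 and 0.47. In *ptc1 ptc6* it was 0.46 ± 0.22, or 1.37-fold, with SE 0.16, an unadjusted p = 0.0282 and an adjusted p = 0.104 (limma). The gene was called with a replicate block (adjusted p = 0.0324), with all 8 arrays fitted and replicate as a random block (0.0253) and with Cy5 arrays only (0.0424), and over all alternatives the adjusted p ranged from 0.0253 to 0.452 (limma).

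*LYS14*, for the transcriptional activator of the pathway, was at 0.17, -0.25, -0.03 and -0.15 in *ptc6* and at 0.11, -0.33, 0.18 and -0.20 in *ptc1 ptc6*. Within every replicate the Cy3 array was the higher one, so the sign of its ratio went with the dye in all replicates but the second of *ptc6*, and the sets overlapped. Its means were -0.06 ± 0.03 and -0.06 ± 0.07 (adjusted p = 0.719 in *ptc1 ptc6*, limma).

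The *ptc6* replicates differed in the same direction across the pathway. All 8 genes with values in both replicates were higher in replicate 1, *LYS14* by the least (-0.04 against -0.09), and 6 were above 0 in both replicate means, which held for 30.2% of all ORFs. The ratios of all ORFs also spread more widely on the arrays of replicate 1 (SD 0.33 and 0.32) than on those of replicate 2 (0.24 and 0.26). *LYS20*, *LYS1*, *LYS21*, *LYS12* and *LYS9* were the 5 highest in each replicate, in a slightly different order. Over the 8 genes the replicate means correlated with r = 0.93, a value across genes that are not independent of each other. Neighbours in the order of *ptc6* means (*LYS1*, *LYS20*, *LYS21*, *LYS12*, *LYS9*, *LYS4*, *LYS5*, *LYS14*) differed by less than the larger SD of the pair. The median Cy5 minus Cy3 value over the genes was 0.10 in replicate 1 and 0.18 in replicate 2.

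Seen array by array, the median log2 ratio of the lysine genes was 0.71, 0.62, 0.15 and 0.36 in *ptc6*. Of the genes with a value, 9 of 9, 8 of 9, 6 of 8 and 7 of 8 were above 0. In *ptc1 ptc6* the array medians were -0.07, -0.12, -0.10 and -0.21, with 3 of 8, 2 of 9, 3 of 9 and 2 of 9 genes above 0. The median percentile of the genes among all ORFs of an array was 98.4, 97.4, 72.5 and 93.9 in *ptc6* and between 39.2 and 48.1 in *ptc1 ptc6*. By this median the genes ranked high on all *ptc6* arrays, less so on experiment 5, and just under the middle on the *ptc1 ptc6* arrays. Single genes could rank low in *ptc6*, such as *LYS14* at percentile 20.1 on experiment 2 and *LYS5* at 10.3 on experiment 5.

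**Figure D2:**
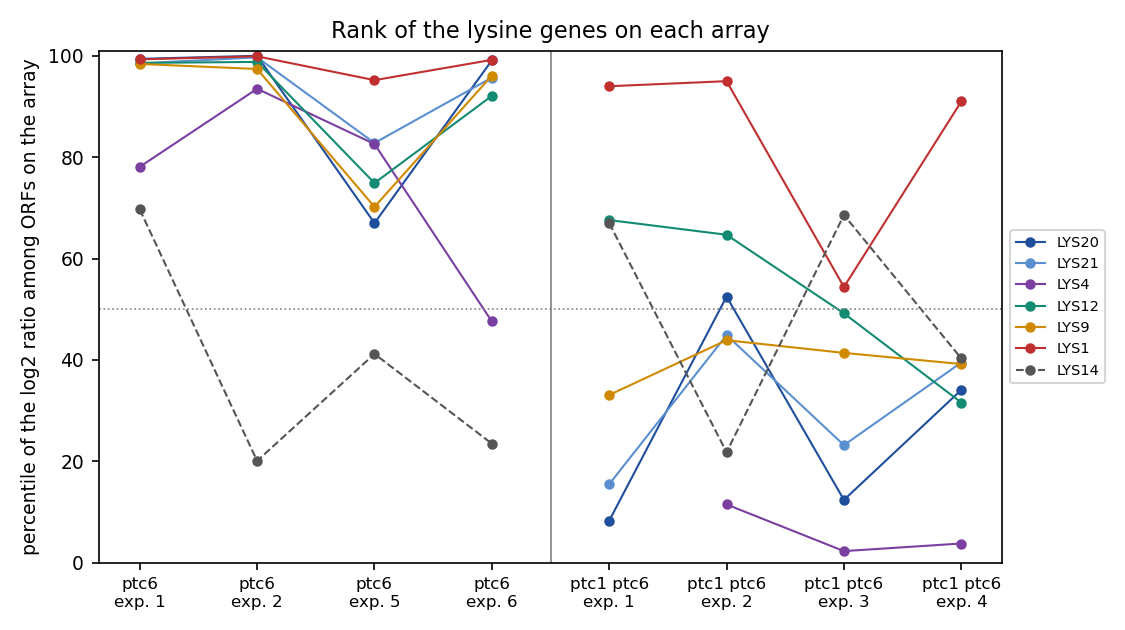
Percentile of the log2 ratio of 7 lysine biosynthesis genes among the ORFs with a value on each array (vertical axis), for the 8 arrays (horizontal axis); the dotted line is the 50th percentile. Lines join arrays of a set only to guide the eye. *LYS1* is at or above percentile 95.2 on the *ptc6* arrays, *LYS4* is at or below 11.5 on the *ptc1 ptc6* arrays, and *LYS14* scatters from 20.1 to 69.7 in *ptc6*.

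Counts over the members were read against all ORFs. In *ptc1 ptc6*, 1 of the 9 lysine genes was called by limma at an adjusted p under 0.05, beside 14.1% of ORFs. The called gene was lower, as were 8.49% of ORFs, and 0 of 9 were called higher, beside 5.64%. At an unadjusted p under 0.05 there were 3 of 9 (*LYS1*, *LYS2* and *LYS4*), beside 34% of ORFs. Over all ORFs, 259 were called higher and 390 lower, and the split became 303 and 264 when arrays were centred on their medians. By either rule, the call rate of the lysine genes was near that of ORFs at large.

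By the 2-fold rule of the study's methods (mean log2 ratio of at least 1 or at most -1 with values on at least 2 of 4 arrays), 0 of 9 lysine genes passed in either mutant. The rule called 0.0549% of ORFs in *ptc6* and 1.98% in *ptc1 ptc6*. By direction, 6 of 8 lysine genes with 4 values were above 0 on every *ptc6* array (*LYS1*, *LYS4*, *LYS9*, *LYS12*, *LYS20* and *LYS21*), and 13.8% of ORFs were. This set had been selected for its *ptc6* values. With centred arrays the count was 5, and the share of ORFs was not computed. In *ptc1 ptc6*, 4 of 8 (*LYS2*, *LYS9*, *LYS20* and *LYS21*) were below 0 on every array, beside 29.9% of ORFs.

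Between the mutants, 4 of 7 lysine genes with all 8 values (*LYS9*, *LYS12*, *LYS20* and *LYS21*) had every *ptc6* array above every *ptc1 ptc6* array, as had 16.9% of ORFs, and 3 did with centred arrays. The share of ORFs with centred arrays was not computed. As a description, the double mutant mean minus the *ptc6* mean was -1.03 for *LYS20*, -0.91 for *LYS4*, -0.84 for *LYS21*, -0.62 for *LYS9*, -0.52 for *LYS12* and -0.30 for *LYS1*. For *LYS5* and *LYS14* it was 0.07 and 0.01. Among 4361 ORFs these differences stood at percentile 0.2 for *LYS20*, 0.9 for *LYS4* and 1.3 for *LYS21*, and at 26.2 for *LYS1*. For *LYS2* the difference was -0.66, from *ptc6* replicate 1 alone. Every other enzyme gene but *LYS5* thus differed more between the mutants than *LYS1*, the gene of the last step. The mutants were hybridised in separate sets and the *ptc6* values chose the pathway, so the difference was not tested.

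**Figure D3:**
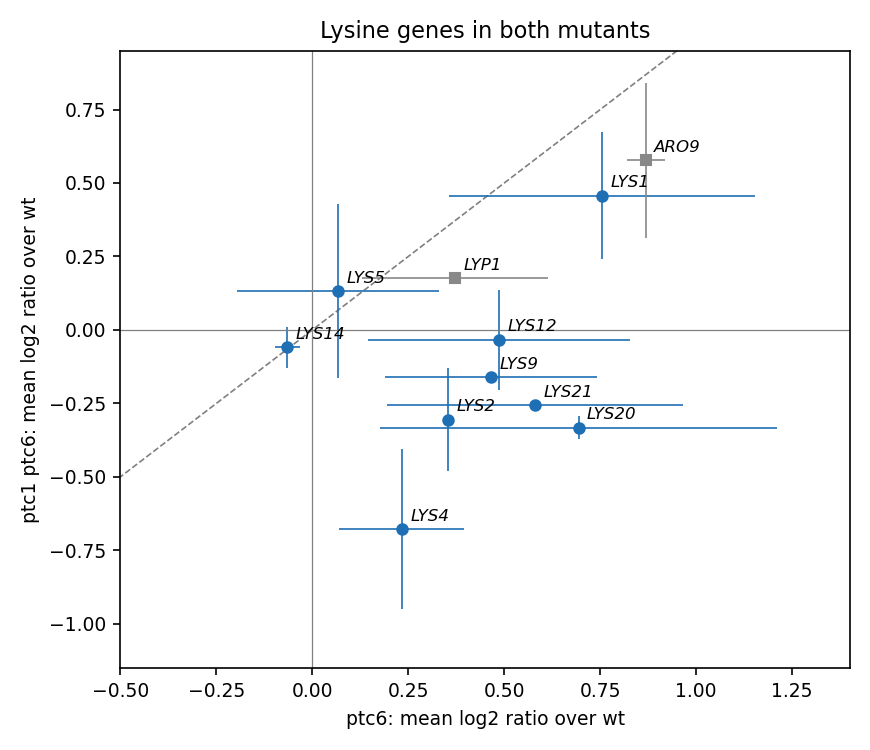
Mean log2 ratio over wt in *ptc1 ptc6* (vertical axis) against that in *ptc6* (horizontal axis) for the 9 lysine biosynthesis genes (circles) and *ARO9* and *LYP1* (squares). Error bars are the SD of 2 replicate means, absent for *LYS2* in *ptc6*, which has 1 replicate, and the dashed line marks equal values. *LYS20*, *LYS21* and *LYS9* lie right of and below 0, *LYS4* is the lowest, and *LYS1* is above 0 on both axes.

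Genes for reactions beside the core enzymes were examined as a list. *ARO9*, an aromatic aminotransferase, was at 0.91, 0.90, 0.79 and 0.88 in *ptc6* and at 0.56, 0.97, 0.37 and 0.41 in *ptc1 ptc6*. It was above 0 on all 8 arrays, and its *ptc6* arrays spanned a narrower range than those of *LYS1* or *LYS20*. In *ptc1 ptc6* its mean of 0.58 ± 0.26 was higher than wt (adjusted p = 0.0356, limma). *ARO8*, for the aminotransferase that forms alpha-aminoadipate, was at 0.18 ± 0.23 in *ptc6* and -0.17 ± 0.13 in *ptc1 ptc6* and did not pass. *ODC1*, for a mitochondrial carrier of 2-oxodicarboxylates, was above 0 on all 8 arrays, at 0.06 ± 0.01 and 0.35 ± 0.18 (adjusted p = 0.0824 in *ptc1 ptc6*, limma). Of the 3 genes tested in this list, 1 was called higher and 0 lower, beside 5.64% and 8.49% of ORFs.

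Lysine uptake and charging genes were measured as a separate list, of which 0 of 6 tested were called higher and 1 lower in *ptc1 ptc6*. Over all ORFs the shares were 5.64% and 8.49%. *LYP1*, the lysine permease, was at 0.64, 0.45, 0.12 and 0.28 in *ptc6* and at 0.29, 0.09, 0.17 and 0.16 in *ptc1 ptc6*. It was above 0 on all arrays, with the higher pair again in *ptc6* replicate 1, but did not pass in the double mutant (0.18 ± 0.02, adjusted p = 0.352, limma).

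The called gene was *KRS1*, for cytosolic lysyl-tRNA synthetase, at -0.45, 0.17, 0.05 and 0.20 in *ptc6* and at -0.70, -0.43, -0.58 and -0.47 in *ptc1 ptc6*. Its *ptc6* arrays straddled 0, and the lowest of them lay within the *ptc1 ptc6* values. The mean in *ptc1 ptc6* was -0.54 ± 0.03 (adjusted p = 0.0339, limma). Among the regulators, 0 of 4 tested were called, beside 14.1% of ORFs. *GCN4* was at 0.19 ± 0.13 in *ptc6* and 0.13 ± 0.12 in *ptc1 ptc6* (adjusted p = 0.447, limma). *RTG3*, a subunit of the retrograde activator, had a value on 1 *ptc1 ptc6* array, at 1.35, and was not tested.

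Other amino acid pathways under Gcn4 gave the lysine genes a frame. In *ptc6* the medians were 0.08 for arginine, 0.18 for histidine, 0.12 for tryptophan and 0.04 for leucine, isoleucine and valine biosynthesis, each below the 0.48 of the lysine genes. In replicate 2 alone the branched-chain median was 0.31 and that of lysine 0.26, whereas in replicate 1 they were -0.21 and 0.69. The histidine median was also at 0.26 in replicate 2, against -0.01 in replicate 1. For arginine and tryptophan the replicate 2 medians were 0.0155 and 0.143. The lysine genes thus led all these lists in replicate 1. In replicate 2 they led arginine and tryptophan but not histidine or the branched-chain genes. Because they were singled out for their *ptc6* values on these arrays, a lead in *ptc6* was favoured by that choice.

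In *ptc1 ptc6* the branched-chain genes had the lowest median, -0.68, with 5 of 10 called lower, beside 8.49% of ORFs. With scaled arrays only 3 ORFs in all were called lower, so these calls did not all hold there. The lysine median of -0.16 lay beside those of histidine (-0.17, with 0 of 5 called) and tryptophan (-0.07, with 0 of 5 called). Arginine was at 0.18 with 1 of 7 called higher, beside 5.64% of ORFs. No test compared one list with another.

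**Figure D4:**
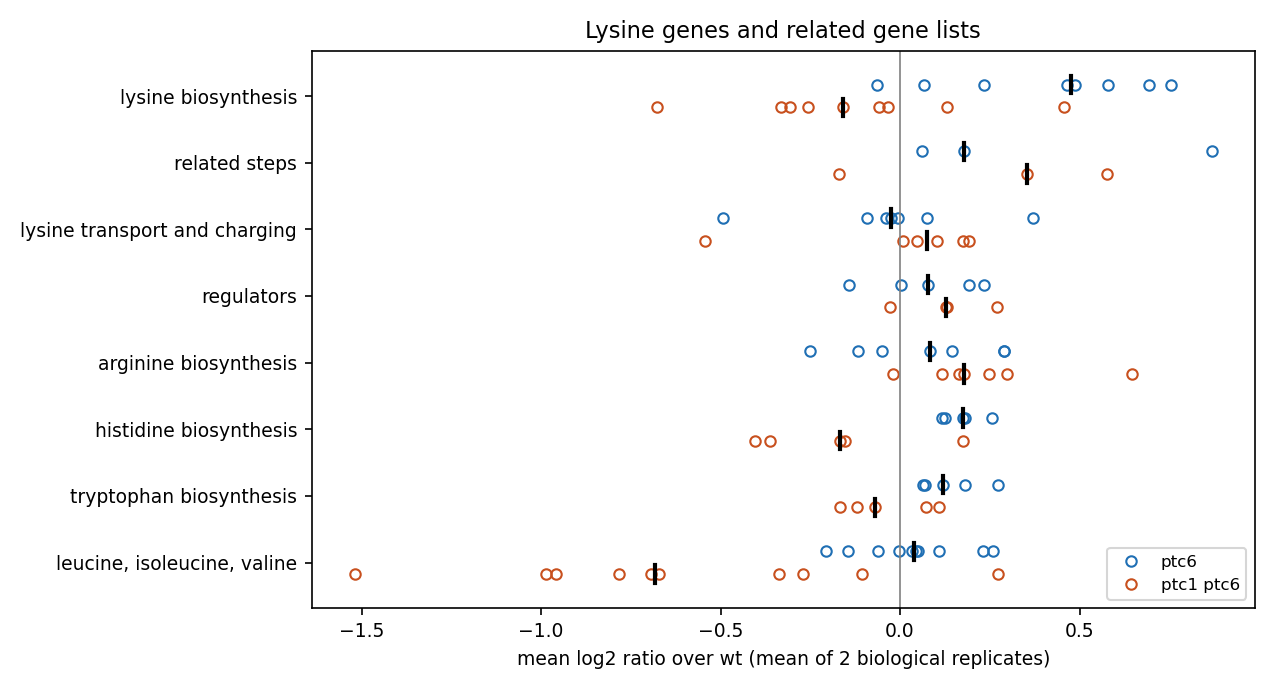
Mean log2 ratio over wt (horizontal axis) of each gene with values in both replicates, by gene list (vertical axis), in *ptc6* (blue) and *ptc1 ptc6* (orange). Each circle is a gene and each black bar the median of its list. Lysine biosynthesis has the highest *ptc6* median, 0.48, and its *ptc1 ptc6* median is -0.16. The lysine genes were singled out for their *ptc6* values.

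The profile of the lysine genes over the arrays was also compared with that of other ORFs. Against the mean of the other members, over 8 arrays that share RNA in pairs, r was 0.96 for *LYS21*, 0.95 for *LYS20*, 0.94 for *LYS9*, 0.89 for *LYS12* and 0.73 for *LYS1*. *LYS5* and *LYS14* did not follow the pathway profile (0.15 and -0.19). *LYS2* and *LYS4* lack values on some arrays and were left out.

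The mean lysine profile was at 0.60, 0.70, 0.10 and 0.31 in *ptc6* and between -0.077 and -0.003 in *ptc1 ptc6*. Likeness to it thus mostly follows the *ptc6* values that chose the pathway. Among 3429 other ORFs, those most like this profile were *CHO1* (r = 0.98), *YHB1* (0.97), *HMT1* (0.96), *SNX3* (0.95) and *APS3* (0.95). They are the top of a search, so their high r came with the choice and was not tested. *CHO1* encodes phosphatidylserine synthase, *YHB1* a flavohemoglobin that detoxifies nitric oxide, *HMT1* an arginine methyltransferase, *SNX3* a sorting nexin and *APS3* a subunit of the AP-3 adaptor. Of these, *YHB1* had the largest gap between the mutants, at 0.62 in *ptc6* (replicates 1.09 and 0.15) and -0.39 in *ptc1 ptc6*. *LYP1* ranked 54th (r = 0.84), behind the genes named above.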

How the data were processed

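The deposited table gives 1 log2 ratio for each ORF on each array. To make it, the authors discarded spots that were small or dim and then used GEPAS for pre-processing. The base of the logarithm, centring and direction are unstated in the table. Base 2 was taken from the methods, and the direction from the deleted genes, far below 0 on the arrays that measured them, and from dye-swapped arrays, which already ran the same way. Within-array normalization and single-channel signals were not analysed here, so no spot could be set against background, and the number of arrays limits the precision.

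Groups came from the labels. After averaging of dye swaps, a linear model with a mean for each group and a shared spread was fitted to the 4 replicates (limma 3.58.1, functions lmFit and eBayes, under R 4.3.3). Each *ptc1 ptc6* mean was tested against 0, two-sided, with Benjamini-Hochberg adjustment over all 4596 ORFs that had values on at least 2 arrays and in both replicates, at a threshold of 0.05. The p-values measure the spread between these replicates; whether wt cultures were separate or shared is not stated. The fit was tested on simulated data. Symbols came from the R64 gene table for 5662 ORFs, and no positions or sequences were used.

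Named genes are all members, *PTC1* and *PTC6*, genes of the lists of related steps, transport and charging, and regulators that passed limma or reached 2-fold, and the 5 ORFs most like the mean lysine profile. *ARO8*, *ODC1*, *LYP1* and *GCN4* were added for their roles after their values were seen. Of the genes written in the list of related steps, 1 was left out of all counts and is not reported here. Members and lists were chosen with earlier results of these data known. Alternatives were centred or scaled arrays, values on 4 of 4 arrays, arrays of 1 dye orientation, all 8 arrays with replicate as a random block, a replicate block, the group fitted alone and leaving out each replicate.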

Additional observations from a re-analysis of the deposited data

Results flagged for a closer look

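*LYS1* on *ptc1 ptc6* experiment 3, at 0.036, lay far below the other arrays of its group, the gap taking 0.907 of the group's range. A search of 20 groups of 4 arrays found 1 such value, and chance gives about 1 in 20 groups, or 1 here. Of the genes with values on opposite sides of 0 in the mutants, with every *ptc6* array above 0 and every measured *ptc1 ptc6* array below it, *LYS4* differed by -0.91, *LYS9* by -0.62, *LYS20* by -1.03 and *LYS21* by -0.84 (*ptc1 ptc6* minus *ptc6*). *LYS2* had the same signs on its measured arrays and differed by -0.66, but it lacked values in *ptc6* replicate 2 and was not flagged. These differences were not tested. The signs depend on where an array is centred. *LYS4* on *ptc6* experiment 6 (0.019) was below the array median of 0.034. *LYS20* on *ptc1 ptc6* experiment 2 (-0.054) was above the array median of -0.075. *LYS9* and *LYS21* kept the pattern against the array medians. The share of all ORFs with this pattern was not computed.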

How the results depend on the processing

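The count of lysine genes called in *ptc1 ptc6*, 1 as reported, was 0 with scaled arrays, 0 with values required on 4 of 4 arrays and 0 with Cy3 arrays only. *LYS4* could not be tested in the last pair. It was 2 with Cy5 arrays only (*LYS1* and *LYS4*), 2 with a replicate block (*LYS1* and *LYS4*) and 3 with all 8 arrays (*LYS1*, *LYS2* and *LYS4*), and it ranged from 0 without *ptc1 ptc6* replicate 2 to 1. The count of ORFs called, 649, was 13 with scaled arrays, 1351 with all 8 arrays, 415 with Cy3 arrays only and between 206 and 485 without a *ptc1 ptc6* replicate. With the replicate block it was 874. Same-numbered replicates did not deviate together (r = -0.21 over 4361 ORFs), and pairing them crosswise, added after seeing the data, gave 1160 ORFs and 1 lysine gene. The cause of these shifts was not tested.

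The lysine median in *ptc1 ptc6*, -0.16, was -0.10 with centred arrays, -0.13 with scaled arrays, -0.11 with values on 4 of 4 arrays and -0.067 with Cy3 arrays only, and stayed below 0 under the alternatives run. The *ptc6* median ranged from 0.26 without replicate 1 to 0.66 without replicate 2, the latter over 9 genes. The count above 0 on every *ptc6* array was 5 with centred arrays and 6 to 8 without a replicate, and the count with no overlap between mutants was 3 with centred arrays and 4 to 6 without one. The shares of all ORFs, 13.8% and 16.9%, were computed for the reported setting only. With a replicate left out, fewer arrays have to agree, so any ORF passes more easily. In *ptc1 ptc6*, *LYS4* kept its call under 6 alternatives and lost it under 2, and it stayed below 0 in all of them. The 8 genes without a call stayed so in 76 fits and gained one in 4 (*LYS1* and *LYS2*). Uncalled genes near 0 could change sign. Without replicate 2, *LYS5* was at -0.0775 and *LYS12* at 0.087, and with Cy3 arrays only *LYS14* was at 0.1455. In *ptc6*, *LYS14* moved between 0.069 with Cy3 arrays and -0.20 with Cy5 arrays. Each group has 2 replicates, and in the reported fit the wider *ptc6* spread enters the errors of *ptc1 ptc6*. Fits without a *ptc1 ptc6* replicate take their spread from *ptc6* alone, which holds for calls kept and calls lost there.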
